A study of Homo sapiens with 14 samples.

Results

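The response of human HCT116 cells to Nutlin, with the nuclear protein SAF-A left in place, was measured as 2 Nutlin libraries against 2 vehicle control libraries. These are 4 of the 14 RNA-seq libraries in the series and were selected by their labels, with earlier results of these data known. HCT116 is a colorectal carcinoma line that keeps functional p53. All 4 came from the engineered line HCT116 osTIR1(F74G) SAF-A-mAID-Halo, so the vehicle control cells also carried the tagged SAF-A (gene HNRNPU) and osTIR1(F74G), the plant F-box protein that sends mAID-tagged proteins to the proteasome once the auxin analog 5-Ph-IAA is added. The treated cells are labelled Nutlin, 3 h, with no dose and with DMSO in the library name, and their controls are labelled DMSO with no time. A pair with 5-Ph-IAA and Nutlin and a pair with 5-Ph-IAA alone share the model fit and serve below as a comparison. The labels do not say whether the line was 1 clone or whether replicates were separate cultures. The p-values therefore measure the spread within groups over the 8 libraries of the fit, which may be technical.

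Nutlins occupy the pocket of MDM2 that binds p53. MDM2 is the ubiquitin ligase that keeps p53 scarce, and cells freed from it accumulate p53 and transcribe its targets, among them inhibitors of the cell cycle, inducers of apoptosis and MDM2 itself. A separate program, the integrated stress response, starts when kinases that sense amino acid shortage or misfolded protein phosphorylate the initiation factor eIF2. Translation then favours ATF4, a transcription factor that with C/EBP-family partners raises genes of amino acid import, amino acid synthesis, tRNA charging and redox balance.

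By edgeR's quasi-likelihood test with Benjamini-Hochberg adjustment, 80 of 17251 genes passed an adjusted p of 0.05, or 0.464% of those tested. Of these, 68 rose (0.394%) and 12 fell (0.0696%). The raised genes with counts in both groups were led by CHAC1, DDIT3, DDIT4 and other genes of the amino acid and protein-folding stress response, together with CDKN1A and further p53 targets. Among the lowered genes with counts in both groups, the Wnt reporter AXIN2 changed most. The 7 lists of stress functions together held 111 tested genes, of which 23 rose (20.7%) and 0 fell, with a median log2 fold change of 0.20. The 5 lists of p53 targets together held 97 tested genes, of which 13 rose (13.4%) and 0 fell, with a median of 0.13. The median over all tested genes was -0.003. Some counts by list below come from fits that leave 1 library in a group, which assume that it varies like the other groups. Those counts are to be read beside the totals of the same fit, out of 17251 genes, and are not results about a list. Without Nutlin replicate 1 the test called 2150 genes, 830 raised and 1320 lowered, and without replicate 2 it called 1176, 418 raised and 758 lowered, so the counts by list below are also given for these fits where they moved.

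A change of at least 4-fold was reached by 14 raised genes. They include UTP14C, SLC7A11-AS1 and noncoding entries without a symbol, whose limits are given below. In each of the 80 genes both Nutlin libraries lay on the same side of both vehicle control libraries. Over all tested genes 18.3% showed this order upward and 17.8% downward. The 80 genes were chosen by p from these same libraries, so their order largely follows from the choice and is no support. At the threshold itself stood MVK, just inside at an adjusted p of 0.0487, and EIF2AK3, just outside at 0.0514. Levels are normalised CPM, counts scaled to a common library total, which do not correct for gene length and are compared only between libraries. Genes named below that did not pass were chosen after their values were seen, except HNRNPU, MDM2 and the 2 most expressed members of a list with none passing, and so were raised genes outside the naming rule such as ATF4, CEBPB, CEBPG and FICD.

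**Figure D1:**
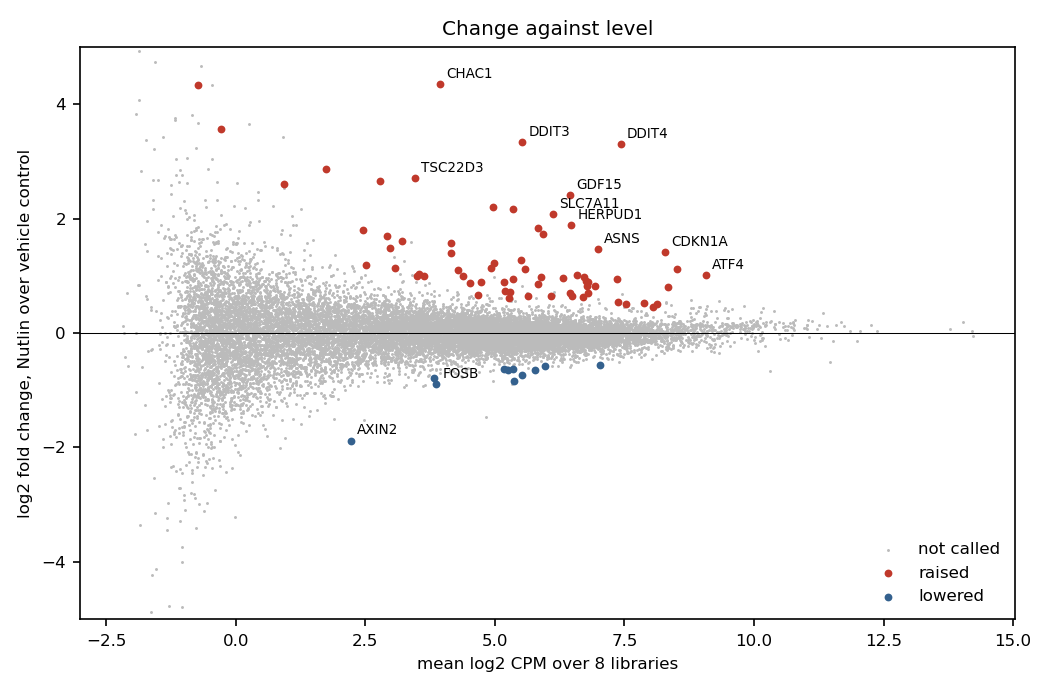
Log2 fold change of Nutlin over vehicle control (y axis) against mean log2 CPM over 8 libraries (x axis), with 1 point per tested gene, raised genes in red and lowered genes in blue. CHAC1 at 4.35, DDIT3 at 3.34 and DDIT4 at 3.30 stand highest among the labelled genes and AXIN2 at -1.88 lowest. The 2 passing genes with a pair of libraries at 0 are left out and 35 other genes lie beyond the axis.

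Nutlin libraries held 12646787 and 17233327 expected counts, against 15612873 and 13213322 in vehicle control libraries. The Nutlin pair stood apart from the others before any gene was tested. Its biological coefficient of variation, the relative spread between replicates beyond counting error, was 0.210, against 0.0685 in the vehicle control pair. It was 0.0541 in the pair with 5-Ph-IAA and Nutlin and 0.0529 in the 5-Ph-IAA control pair. The fit pooled the spread of all 8 libraries, with a common value of 0.114. The p-values and SE given here may therefore be too small for the Nutlin pair. A fit on the compared groups only called 28 genes, against 80. Across 9998 genes with a mean log2 CPM of at least 3, the replicates differed by over 2-fold for 2.03% of genes in the Nutlin pair and 0.10% in the vehicle control pair. This difference correlated with the GC percent of a gene's longest transcript at r = 0.41 in the Nutlin pair, r = 0.40 in the vehicle control pair, r = 0.05 with 5-Ph-IAA and Nutlin and r = -0.06 in the 5-Ph-IAA control, across genes, which are not independent replicates. FASN, fatty acid synthase, had 598 and 165 CPM with Nutlin, against 332 and 362 CPM with vehicle. Mitochondrially encoded genes took 0.311% and 0.189% of counts in Nutlin libraries, against 0.326% and 0.289% in vehicle control libraries. Beyond a fit with a GC trend removed from each library, the part of GC content in the results was not tested.

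**Figure D2:**
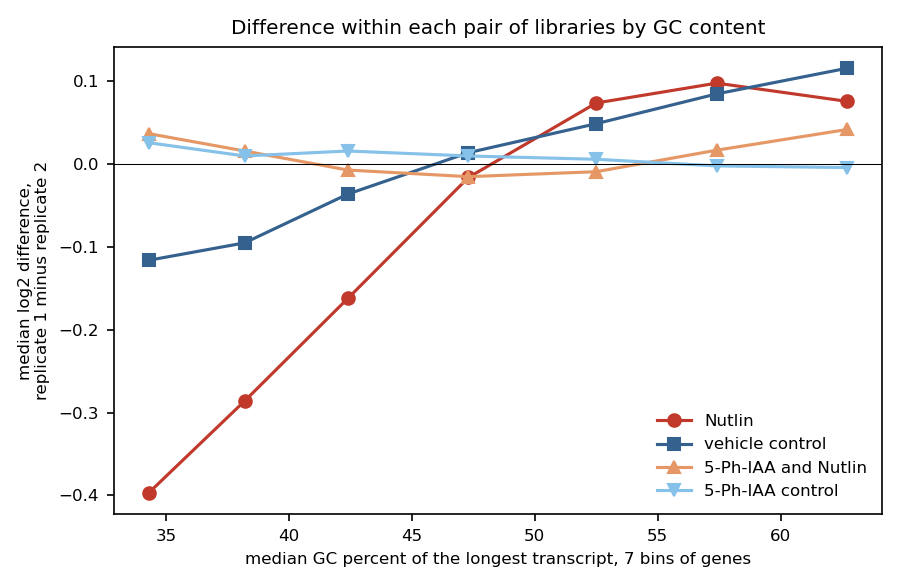
Median log2 difference between replicate 1 and replicate 2 (y axis) in 7 bins of genes by GC percent of the longest transcript (x axis), with 1 line for each pair of libraries. In the Nutlin pair the median ran from -0.40 in the lowest bin to 0.10 in the bin at 57.4% GC, and in the vehicle control pair from -0.12 to 0.12.

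The targeted gene and cell type markers were read first. HNRNPU had 505 and 572 CPM with Nutlin, against 640.0 and 634 CPM with vehicle, a log2 fold change of -0.24 ± 0.09 (SE, edgeR adjusted p = 0.405), and it passed only in the fit without Nutlin replicate 2, at -0.34, among the 17 alternatives. The epithelial adhesion gene EPCAM had 213 and 258 CPM with Nutlin, against 235 and 239.8 CPM with vehicle, and the keratin KRT8 had 3288 and 3413 CPM with Nutlin, against 3199 and 2882 CPM with vehicle. The intestinal genes CDX1 and TFF3 were at 0 in all 4 libraries, the summed level of the 15 colon epithelium markers was 8412 and 8851 CPM with Nutlin against 8051 and 7506 CPM with vehicle, and none passed. Of the colon epithelium markers, 3 rose and 0 fell without Nutlin replicate 1, and 2 rose and 0 fell without replicate 2. Of 18 markers of other cell types, 4 were at 0 in all 4 libraries, among them the leukocyte marker PTPRC. Their summed level was 14.3 and 7.92 CPM in Nutlin libraries, against 10.2 and 13.04 CPM in vehicle control libraries. The most expressed of them were CD68, with 6.63 and 4.69 CPM with Nutlin, against 4.76 and 5.32 CPM with vehicle, and COL1A1, with 3.74 and 1.096 CPM with Nutlin, against 1.43 and 3.15 CPM with vehicle.

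The factors of the integrated stress response had the greatest median of the 31 lists, 1.01, with 8 of 13 tested members raised and 0 lowered. DDIT3, which encodes CHOP, the factor that turns prolonged stress toward cell death, had 147 and 152 CPM with Nutlin, against 15.2 and 14.5 CPM with vehicle, a log2 fold change of 3.34 ± 0.12 or 10.1-fold (adjusted p = 1.34e-06). ATF4 itself, which is controlled largely at translation, had 748 and 815 CPM with Nutlin, against 401 and 377 CPM with vehicle (1.01 ± 0.09, log2 fold change ± SE, as in all parentheses of this form). In both genes the replicates of a group lay close together and the groups far apart. ATF3, a bZIP factor of the same network, had 72.9 and 66.6 CPM with Nutlin, against 14.9 and 15.4 CPM with vehicle (2.21 ± 0.12). TRIB3, a pseudokinase that restrains ATF4 and CHOP, had 119 and 104 CPM with Nutlin, against 32.01 and 30.5 CPM with vehicle (1.84 ± 0.12). XBP1, the factor whose mRNA IRE1 splices under ER stress, had 137 and 133 CPM with Nutlin, against 67.3 and 66.4 CPM with vehicle (1.01 ± 0.09). The bZIP factors JDP2, CEBPB and CEBPG rose by 1.478, 1.10 and 0.64 on the log2 scale.

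The other members of this list did not pass. The eIF2 kinase PERK (EIF2AK3) had 51.1 and 50.9 CPM with Nutlin, against 34.9 and 34.2 CPM with vehicle, and the inducible eIF2 phosphatase subunit PPP1R15A had 58.7 and 46.8 CPM with Nutlin, against 33.8 and 30.4 CPM with vehicle (adjusted p = 0.054). Both were separated between groups. The amino acid sensing kinase EIF2AK4 had 111 and 104 CPM with Nutlin, against 118 and 113 CPM with vehicle, the constitutive phosphatase subunit PPP1R15B had 193 and 184 CPM with Nutlin, against 183 and 190.2 CPM with vehicle, and ATF5 had 4.29 and 4.202 CPM with Nutlin, against 4.43 and 4.87 CPM with vehicle. Without vehicle control replicate 1 or 2 the raised members numbered 5 and 5, and 6 without any 1 of the 4 libraries with 5-Ph-IAA. JDP2 (1.81 and 1.22), CEBPB (1.18 and 1.04) and CEBPG (0.61 and 0.67) lost their calls without either vehicle control library, at the log2 fold changes given. Of the factors of this response, 10 rose and 0 fell without Nutlin replicate 1, and 10 rose and 0 fell without replicate 2.

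**Figure D3:**
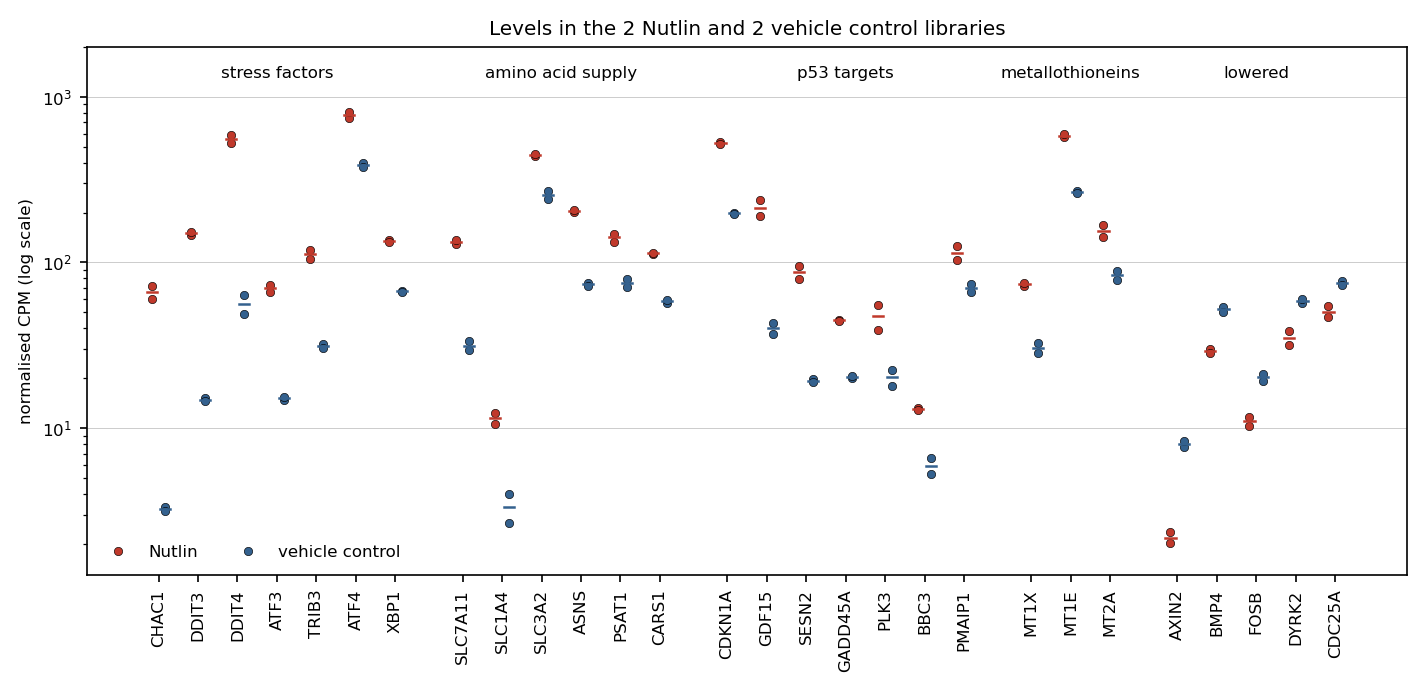
Normalised CPM on a log axis for 28 passing genes in the 2 Nutlin libraries (red, left) and the 2 vehicle control libraries (blue, right), with a bar at each mean. The pairs of every gene shown are separated, from CHAC1 at 72.4 and 60.5 against 3.33 and 3.15 CPM to CDC25A at 46.9 and 54.2 against 77.8 and 72.7 CPM. All passing genes were separated, which largely follows from their choice by p.

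CHAC1, the enzyme that degrades glutathione and a known output of ATF4 and CHOP, changed most among passing genes with counts in both groups and a symbol. It had 72.4 and 60.5 CPM with Nutlin, against 3.33 and 3.15 CPM with vehicle, a log2 fold change of 4.35 ± 0.17 or 20.4-fold (adjusted p = 1.34e-06). CHAC1 (ENSG00000128965.13) lies on chromosome 15 from 40952962 to 40956519 on the + strand of GRCh38. The cystine importer SLC7A11 had 129 and 136 CPM with Nutlin, against 29.4 and 33.3 CPM with vehicle (2.08 ± 0.10). These were the 2 raised of 17 tested genes on the glutathione and NRF2 list, whose median was 0.07. The NRF2 targets NQO1, with 386 and 477 CPM with Nutlin, against 393 and 380.0 CPM with vehicle, and TXNRD1, with 703 and 809.5 CPM with Nutlin, against 712 and 726 CPM with vehicle, did not pass, nor did the glutathione synthesis genes GCLC (-0.04), GCLM (-0.31) and GSS (0.23). Of the glutathione and NRF2 targets, 3 rose and 2 fell without Nutlin replicate 1, and 3 rose and 0 fell without replicate 2. The raised pair is known to answer to ATF4 as well as, for SLC7A11, to NRF2.

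Promoter windows, 250 bases before to 50 after the start, were taken from RefSeq on GRCh38.p14 and were found for 51 of the 68 raised and 6 of the 12 lowered genes. The composite element of ATF4 and C/EBP factors was searched on both strands as TTGCATCA and as TGATGNAA. The reverse complement of the first is 1 form of the second, so their matches overlap. TGATGNAA occurred in 8 of the 51 raised genes (15.69%), ASNS, ATF3, CARS1, CHAC1, HERPUD1, MARS1, PLK3 and SLC3A2, against 1.74% of tested genes and 3.67% of all promoters. TTGCATCA occurred in 4 of the 51 (7.84%), against 0.51% of tested genes and 0.92% of all promoters. A strict form of the p53 core, searched as CATG, any 6 bases and CATG without mismatches, occurred in 0 of the 51, against 0.21% of tested genes and 0.39% of all promoters. At so low a share, 0 of 51 says little about p53 sites. The sterol element TCACNCCAC occurred in 1 (1.96%), SLC1A4, against 1.06% of tested genes and 1.15% of all promoters. The 6 lowered genes with a window held none of these. A match describes letters and not binding, and no match says only that the letters are not in this window.

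The windows of 6 raised genes with the composite element are printed 5′ to 3′ on the gene's strand, with the element in capitals, because these genes rose and carry it near their start. They lie at chr15:40953221-40953520 (+), chr16:56931892-56932191 (+), chr11:3057374-3057673 (-), chr12:57487818-57488117 (+), chr7:97872359-97872658 (-) and chr1:212565157-212565456 (+).
CHAC1: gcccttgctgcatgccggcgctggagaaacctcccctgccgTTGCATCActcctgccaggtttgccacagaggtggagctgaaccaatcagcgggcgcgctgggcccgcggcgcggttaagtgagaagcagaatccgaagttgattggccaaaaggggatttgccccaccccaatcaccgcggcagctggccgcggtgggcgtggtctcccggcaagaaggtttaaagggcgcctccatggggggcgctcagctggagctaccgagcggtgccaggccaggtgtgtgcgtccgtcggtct
HERPUD1: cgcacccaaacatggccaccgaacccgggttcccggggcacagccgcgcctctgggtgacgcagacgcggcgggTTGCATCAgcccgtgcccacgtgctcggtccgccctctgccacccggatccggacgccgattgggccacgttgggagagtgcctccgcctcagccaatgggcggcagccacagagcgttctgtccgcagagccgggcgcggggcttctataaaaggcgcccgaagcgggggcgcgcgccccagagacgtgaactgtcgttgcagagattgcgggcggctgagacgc
CARS1: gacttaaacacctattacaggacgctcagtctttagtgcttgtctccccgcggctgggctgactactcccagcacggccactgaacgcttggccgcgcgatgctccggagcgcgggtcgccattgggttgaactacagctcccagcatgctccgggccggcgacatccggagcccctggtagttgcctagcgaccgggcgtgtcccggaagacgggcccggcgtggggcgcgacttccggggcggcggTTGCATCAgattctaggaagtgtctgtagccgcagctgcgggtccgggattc
MARS1: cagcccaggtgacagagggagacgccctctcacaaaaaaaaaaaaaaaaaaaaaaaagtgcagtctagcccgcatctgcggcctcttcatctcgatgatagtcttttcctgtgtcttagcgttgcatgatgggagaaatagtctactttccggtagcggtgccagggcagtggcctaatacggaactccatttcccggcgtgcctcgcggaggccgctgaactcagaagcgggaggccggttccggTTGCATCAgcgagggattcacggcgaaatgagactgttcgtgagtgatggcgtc
ASNS: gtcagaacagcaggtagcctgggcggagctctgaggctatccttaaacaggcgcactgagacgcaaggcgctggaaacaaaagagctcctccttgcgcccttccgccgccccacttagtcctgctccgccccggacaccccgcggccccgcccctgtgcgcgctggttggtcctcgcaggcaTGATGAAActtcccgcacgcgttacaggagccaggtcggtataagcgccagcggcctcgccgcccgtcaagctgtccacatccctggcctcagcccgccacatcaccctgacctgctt
ATF3: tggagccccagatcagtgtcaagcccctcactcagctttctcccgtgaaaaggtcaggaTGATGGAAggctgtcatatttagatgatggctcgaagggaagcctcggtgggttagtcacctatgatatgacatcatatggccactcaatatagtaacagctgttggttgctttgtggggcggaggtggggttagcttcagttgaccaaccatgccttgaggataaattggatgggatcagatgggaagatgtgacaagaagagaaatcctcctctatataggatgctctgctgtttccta
The element begins at base -209 from the start in CHAC1, -176 in HERPUD1, -2 in CARS1, -4 in MARS1, -68 in ASNS and -191 in ATF3. CHAC1, HERPUD1, CARS1 and MARS1 hold the same 8 letters, and in the tRNA synthetase genes CARS1 and MARS1 these lie across the RefSeq start. The MARS1 start in RefSeq lies inside the gene as GENCODE places it.

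Amino acid import and synthesis formed the next group. Of 13 tested amino acid transporters 3 rose and 0 fell, with a median of 0.45. Besides SLC7A11 these were its partner chain SLC3A2, with 440.2 and 451 CPM with Nutlin, against 269.8 and 242 CPM with vehicle (0.80 ± 0.09), and SLC1A4, a carrier of alanine, serine and cysteine, with 10.6 and 12.3 CPM with Nutlin, against 2.67 and 3.97 CPM with vehicle (1.79 ± 0.25). The glutamine carrier SLC38A2 was separated without passing, with 666 and 826 CPM with Nutlin, against 469.5 and 538 CPM with vehicle (adjusted p = 0.102). The leucine carrier SLC7A5, with 324 and 193 CPM with Nutlin, against 178 and 218 CPM with vehicle, and the arginine carrier SLC7A1, with 154 and 82.8 CPM with Nutlin, against 84.4 and 88.7 CPM with vehicle, split between the Nutlin replicates. SLC1A4 lost its call without either vehicle control library (1.53 and 2.10) and SLC3A2 without replicate 2 (0.72). Amino acid transporters numbered 4 raised and 2 lowered without Nutlin replicate 1, and 8 raised and 0 lowered without replicate 2.

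Of 14 tested genes of amino acid and one-carbon synthesis 4 rose, 0 fell and all 14 had positive log2 fold changes, with a median of 0.40. Asparagine synthetase, ASNS, had 201 and 207 CPM with Nutlin, against 75.6 and 71.6 CPM with vehicle (1.47 ± 0.10). PSAT1, an enzyme of serine synthesis, had 149.5 and 133 CPM with Nutlin, against 71.5 and 79.5 CPM with vehicle (0.91 ± 0.10), and PHGDH, which commits carbon to that route, had 92.6 and 76.97 CPM with Nutlin, against 53.8 and 54.9 CPM with vehicle (0.64 ± 0.11). The pathway's last enzyme, PSPH, had 50.5 and 55.4 CPM with Nutlin, against 41.2 and 40.01 CPM with vehicle and did not pass (adjusted p = 0.222). The alanine transaminase GPT2 rose by 0.74. The mitochondrial folate enzyme MTHFD2, separated but not passing, had 522 and 626 CPM with Nutlin, against 412 and 428 CPM with vehicle. Of the 4, PSAT1 lost its call without vehicle control replicate 1 (0.83), and PHGDH and GPT2 without either. PHGDH and GPT2 also lost theirs without any 1 library with 5-Ph-IAA. Of the synthesis genes, 9 rose and 0 fell without Nutlin replicate 1, and 6 rose and 0 fell without replicate 2.

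Of 20 cytosolic tRNA synthetases, which charge tRNAs with amino acids, 3 rose, 0 fell and 17 were positive, with a median of 0.23. CARS1, for cysteine, had 112 and 114 CPM with Nutlin, against 57.1 and 59.6 CPM with vehicle (0.96 ± 0.09). GARS1, for glycine, rose by 0.52 and MARS1, for methionine, by 0.46. On chromosome 12 MARS1 ends at 57517569 on the + strand, inside DDIT3, which runs from 57516588 to 57521737 on the - strand. The strand setting of the counting is not given, so reads in this overlap cannot be told apart. AARS1, for alanine, had 253 and 189.6 CPM with Nutlin, against 139 and 135 CPM with vehicle, and missed the threshold (adjusted p = 0.0522). HARS1, for histidine, lay level, with 169 and 166 CPM with Nutlin, against 175 and 168 CPM with vehicle. Without either vehicle control library CARS1 alone of the 3 stayed raised. GARS1 and MARS1 also lost their calls without any 1 library with 5-Ph-IAA. Of the cytosolic tRNA synthetases, 11 rose and 1 fell without Nutlin replicate 1, and 7 rose and 1 fell without replicate 2.

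In the list of protein folding in the endoplasmic reticulum (ER) 2 of 19 tested genes rose, 0 fell and 18 were positive, with a median of 0.19. HERPUD1, a membrane protein of ER-associated degradation, had 167 and 173 CPM with Nutlin, against 45.8 and 46.2 CPM with vehicle (1.89 ± 0.09). DNAJB9, a co-chaperone that restrains IRE1, had 23.2 and 33.1 CPM with Nutlin, against 9.71 and 11.7 CPM with vehicle (1.40 ± 0.21) and lost its call without either vehicle control library (1.27 and 1.54). The abundant chaperones did not pass. HSPA5, which encodes BiP, had 669.5 and 349 CPM with Nutlin, against 347 and 332 CPM with vehicle, so that Nutlin replicate 2 lay at the vehicle level, and HSP90B1 had 1067 and 1084 CPM with Nutlin, against 988 and 969.6 CPM with vehicle. FICD, which modifies BiP, rose by 1.04 and is not on this list. ER folding genes numbered 8 raised and 1 lowered without Nutlin replicate 1, and 5 raised and 0 lowered without replicate 2.

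The ER stress element, CCAAT, any 9 bases and CCACG on either strand, was found in 2 of the 51 raised genes (3.92%), XBP1 and FICD, against 0.13% of tested genes and 0.08% of all promoters. The XBP1 window, chr22:28800520-28800819 (-), is shown for its place in this response, with the element in capitals from base -52.
XBP1: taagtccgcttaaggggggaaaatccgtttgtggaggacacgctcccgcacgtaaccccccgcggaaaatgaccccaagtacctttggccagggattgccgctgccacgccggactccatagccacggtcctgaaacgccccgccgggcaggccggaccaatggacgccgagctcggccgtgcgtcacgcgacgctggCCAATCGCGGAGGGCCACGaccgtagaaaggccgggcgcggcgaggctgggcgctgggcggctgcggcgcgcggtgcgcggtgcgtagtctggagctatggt
HERPUD1, in the window printed above, holds the composite element and not this form.

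Among inhibitors of mTORC1, the kinase complex that drives growth when amino acids are plentiful, 2 of 16 tested genes rose, 0 fell and the median was -0.09. DDIT4, which acts through the TSC complex, had 524 and 587 CPM with Nutlin, against 63.8 and 49.1 CPM with vehicle, a log2 fold change of 3.30 ± 0.14 or 9.82-fold. SESN2, a leucine sensor and a known target of both p53 and ATF4, had 95.3 and 78.9 CPM with Nutlin, against 19.8 and 18.96 CPM with vehicle (2.17 ± 0.12). The related SESN1, a p53 target, had 31.7 and 40.5 CPM with Nutlin, against 24.8 and 24.1 CPM with vehicle, and SESN3 had 2.42 and 2.86 CPM with Nutlin, against 3.26 and 4.65 CPM with vehicle, and neither passed. TSC1 (-0.26), TSC2 (-0.04) and the amino acid sensing subunits NPRL2 (0.18) and DEPDC5 (-0.06) did not pass either. Both calls held in all 17 alternatives. The mTORC1 inhibitors numbered 3 raised and 2 lowered without Nutlin replicate 1, and 2 raised and 2 lowered without replicate 2.

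The growth arrest list had the greatest median of the 5 p53 lists, 0.44, with 5 of 15 tested genes raised and 0 lowered. CDKN1A, the p21 inhibitor of cyclin-dependent kinases, had 537 and 519 CPM with Nutlin, against 200.1 and 197 CPM with vehicle, a log2 fold change of 1.41 ± 0.09 or 2.66-fold (adjusted p = 3.16e-05). CDKN1A (ENSG00000124762.15) lies on chromosome 6 from 36676460 to 36687339 on the + strand. GADD45A, which slows the cycle after damage, had 44.8 and 44.4 CPM with Nutlin, against 20.01 and 20.5 CPM with vehicle (1.14 ± 0.12). Its relative GADD45B rose by 0.999, the stress kinase PLK3 by 1.22 and the antiproliferative BTG2 by 0.87. SFN (0.11), E2F7 (-0.04) and FBXW7 (0.04), also known p53 targets, did not pass. Without either vehicle control library CDKN1A alone of the 5 stayed raised, at 1.42 and 1.40. The p53 growth arrest targets numbered 6 raised and 3 lowered without Nutlin replicate 1, and 7 raised and 0 lowered without replicate 2.

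Of 20 tested cell death targets of p53 3 rose and 0 fell, with a median of 0.10. BBC3, which encodes the BH3-only protein PUMA, had 13.2 and 12.8 CPM with Nutlin, against 6.58 and 5.25 CPM with vehicle (1.13 ± 0.17). PMAIP1, which encodes its relative NOXA, had 104 and 125 CPM with Nutlin, against 66.2 and 74.5 CPM with vehicle (0.70 ± 0.12), and the death receptor gene TNFRSF10B had 204 and 186 CPM with Nutlin, against 135 and 134 CPM with vehicle (0.54 ± 0.09). All 3 calls were lost without either vehicle control library and without any 1 library with 5-Ph-IAA. FAS had 43.8 and 54.7 CPM with Nutlin, against 31.8 and 33.9 CPM with vehicle (adjusted p = 0.0929), and BAX had 24.2 and 22.5 CPM with Nutlin, against 19.8 and 17.2 CPM with vehicle (adjusted p = 0.426). TNFRSF10D, a decoy receptor for the same ligand as TNFRSF10B, lay the other way, with 77.8 and 82.8 CPM with Nutlin, against 119 and 110.1 CPM with vehicle (adjusted p = 0.054). The p53 cell death targets numbered 5 raised and 1 lowered without Nutlin replicate 1, and 4 raised and 2 lowered without replicate 2.

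Among 12 feedback regulators of p53, 1 rose, PHLDA3, an inhibitor of AKT, with 31.5 and 32.03 CPM with Nutlin, against 20.2 and 19.8 CPM with vehicle (0.67 ± 0.11). MDM2, the protein that Nutlin binds, had 348 and 411 CPM with Nutlin, against 246 and 276 CPM with vehicle (0.54 ± 0.10, adjusted p = 0.0661). Its groups did not overlap and it missed the threshold, which it passed in 7 of 17 alternatives, including the fits without Nutlin replicate 1 (0.65) and without replicate 2 (0.41). TP53INP1 had 35.02 and 35.2 CPM with Nutlin, against 19.7 and 24.7 CPM with vehicle (adjusted p = 0.0845), and the phosphatase PPM1D had 64.4 and 70.6 CPM with Nutlin, against 55.6 and 51.5 CPM with vehicle. CCNG1 (0.04) and ZMAT3 (-0.16), both common p53 reporters, did not pass. PHLDA3 lost its call without either vehicle control library (0.68 and 0.65) and without any 1 library with 5-Ph-IAA. Of the p53 feedback regulators, 5 rose and 0 fell without Nutlin replicate 1, and 4 rose and 1 fell without replicate 2.

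In the list of p53 targets in repair and metabolism 2 of 17 tested genes rose, SESN2 and LPIN1, a phosphatidate phosphatase, with a median of 0.28. LPIN1 had 53.5 and 42.3 CPM with Nutlin, against 28.03 and 23.5 CPM with vehicle, and lost its call without either vehicle control library (1.02 and 0.77). Its call was also lost without any 1 library with 5-Ph-IAA. The nucleotide excision repair genes XPC and DDB2 did not pass, at 0.41 and 0.31. Of the p53 repair and metabolism targets, 8 rose and 0 fell without Nutlin replicate 1, and 4 rose and 0 fell without replicate 2. Of 33 other p53 targets tested 2 rose, ATF3 and GDF15. GDF15, a secreted factor of the stress response, had 237 and 191 CPM with Nutlin, against 43.2 and 36.8 CPM with vehicle (2.42 ± 0.13). Other p53 targets numbered 6 raised and 2 lowered without Nutlin replicate 1, and 6 raised and 1 lowered without replicate 2. GDF15, ATF3 and SESN2, the p53-list genes that changed over 4-fold, are also known to answer to ATF4 or CHOP. Of the 13 raised p53-list genes 11 were on no stress list, GDF15 among them. Absence from the stress lists therefore does not mark a gene as a target of p53 alone.

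**Figure D4:**
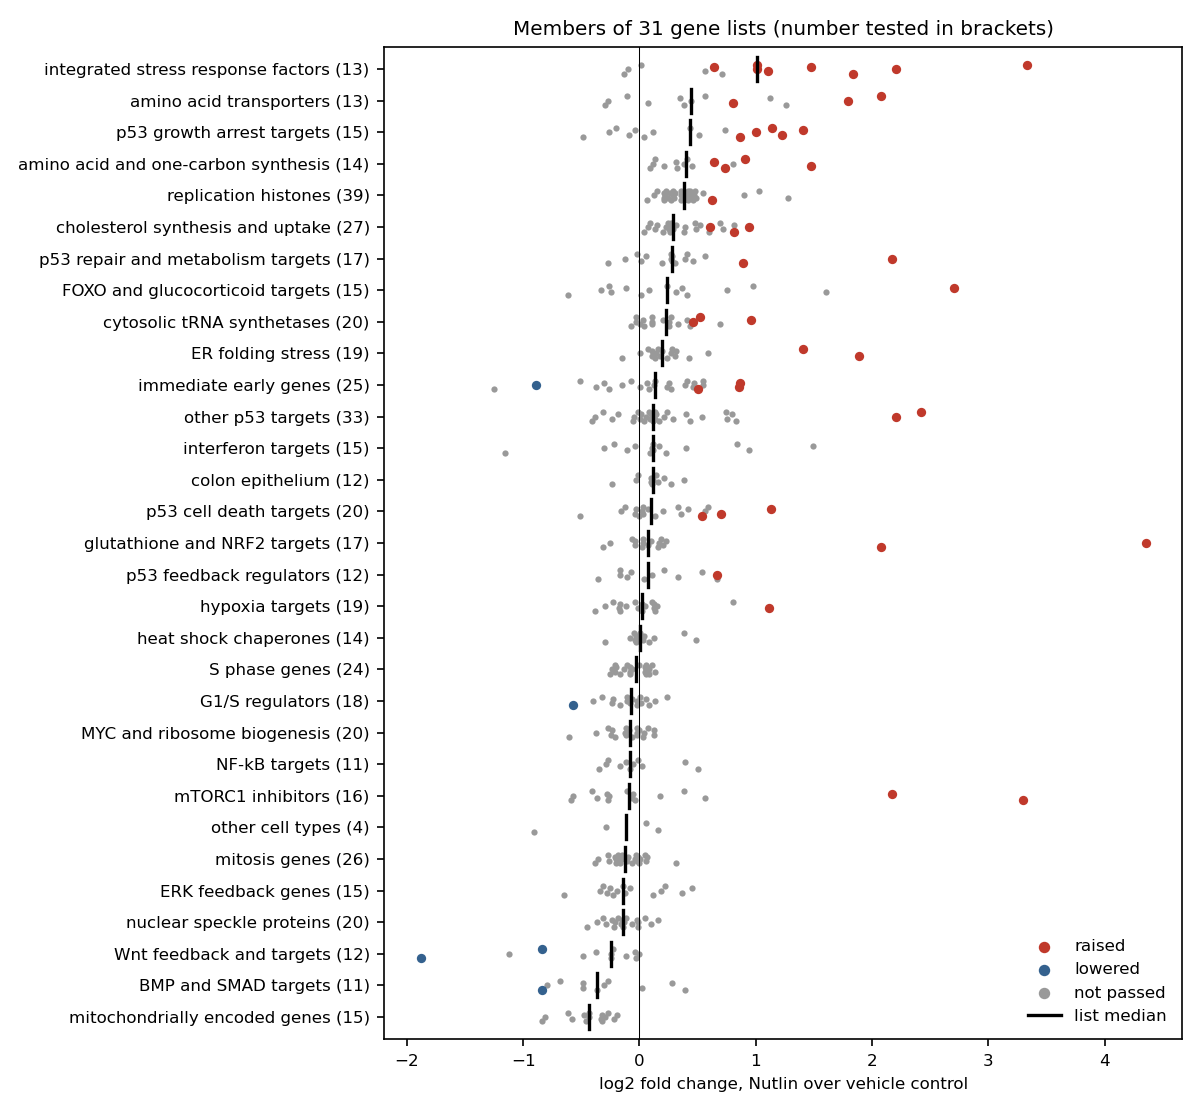
Log2 fold change of Nutlin over vehicle control (x axis) for the tested members of 31 gene lists (rows, ordered by median), with raised members in red, lowered in blue and list medians as black ticks. Stress factors stand at a median of 1.01, and the p53 growth arrest list, at 0.44, leads the p53 lists.

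All 27 genes of cholesterol synthesis and uptake had positive log2 fold changes, with a median of 0.29, and 3 rose. INSIG1, which holds the sterol-regulated SREBP factors in the ER, had 127 and 159 CPM with Nutlin, against 79.7 and 82.7 CPM with vehicle (0.82 ± 0.12). Mevalonate kinase, MVK, had 44.8 and 51.8 CPM with Nutlin, against 31.9 and 31.5 CPM with vehicle (0.61 ± 0.11), and no longer passed with the GC trend removed, at 0.57. HMGCS1, at the entry of the pathway, had 94.8 and 89.9 CPM with Nutlin, against 62.7 and 69.3 CPM with vehicle (adjusted p = 0.0783). The raised count was 0 without either vehicle control library. Of the cholesterol genes, 16 rose and 2 fell without Nutlin replicate 1, and 14 rose and 0 fell without replicate 2.

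TSC22D3, which encodes the leucine zipper protein GILZ, was the 1 raised gene of 15 tested targets of FOXO factors and the glucocorticoid receptor. It had 26.4 and 28.4 CPM with Nutlin, against 4.69 and 3.67 CPM with vehicle (2.71 ± 0.16). FKBP5 (-0.33), PER1 (0.37) and SGK1 (-0.25), which also answer to glucocorticoids, did not pass. Of the FOXO and glucocorticoid targets, 3 rose and 2 fell without Nutlin replicate 1, and 2 rose and 0 fell without replicate 2. RSEM's mean transcript length for TSC22D3 was 1627 and 1780 bases with Nutlin, against 1508 and 1394 bases with vehicle, 17.4% longer. VEGFA, an angiogenic factor that hypoxia and ATF4 can both induce, had 73.4 and 69.1 CPM with Nutlin, against 32.1 and 33.6 CPM with vehicle (1.11 ± 0.10). It was the 1 raised gene of 19 on the hypoxia list, whose median was 0.02, and CA9, a specific marker of hypoxia, had 1.404 and 1.28 CPM with Nutlin, against 0.913 and 0.599 CPM with vehicle. Hypoxia targets numbered 2 raised and 1 lowered without Nutlin replicate 1, and 1 raised and 1 lowered without replicate 2.

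AXIN2, the feedback scaffold that promotes destruction of beta-catenin and a standard Wnt reporter, fell most among passing genes with counts in both groups. It had 2.34 and 2.01 CPM with Nutlin, against 7.69 and 8.32 CPM with vehicle, a log2 fold change of -1.88 ± 0.24 (adjusted p = 0.00745). AXIN2 (ENSG00000168646.14) lies on chromosome 17 from 65528563 to 65561647 on the - strand. Of 12 tested Wnt genes 2 fell, 0 rose and none was positive, with a median of -0.24. The second was BMP4, a secreted ligand, with 30.2 and 28.3 CPM with Nutlin, against 54.2 and 50.2 CPM with vehicle (-0.84 ± 0.11). The receptor ligase RNF43 (-0.24), the secreted deacylase NOTUM, with 3.51 and 3.47 CPM with Nutlin, against 3.33 and 3.67 CPM with vehicle, and the Wnt antagonist DKK1, with 353 and 409.9 CPM with Nutlin, against 362 and 419 CPM with vehicle, did not pass. Both calls were lost without either vehicle control library, AXIN2 at -1.94 and -1.82 and BMP4 at -0.78 and -0.89. They were also lost by limma with library weights and in the fit on the compared groups only. Of the Wnt genes, 0 rose and 7 fell without Nutlin replicate 1, and 0 rose and 2 fell without replicate 2. The list's median was -0.46 and -0.18 in those fits. In bulk RNA, fewer cells of a kind and less RNA per cell cannot be told apart.

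BMP4 was also the 1 lowered gene of 11 tested BMP and SMAD targets, whose median was -0.37. The homeobox gene MSX1 had 18.2 and 21.8 CPM with Nutlin, against 34.5 and 29.97 CPM with vehicle, without passing (adjusted p = 0.0611). ID1, a direct SMAD target, lay the other way, with 292 and 324 CPM with Nutlin, against 259 and 248 CPM with vehicle. BMP and SMAD targets numbered 1 raised and 2 lowered without Nutlin replicate 1, and 0 raised and 2 lowered without replicate 2. CDC25A, the phosphatase that activates CDK2 for S phase entry, was the 1 lowered gene of 18 tested G1/S regulators, with 46.9 and 54.2 CPM with Nutlin, against 77.8 and 72.7 CPM with vehicle (-0.57 ± 0.10). The cyclin gene CCND1 had 701 and 696 CPM with Nutlin, against 787 and 844 CPM with vehicle, and did not pass. CDC25A lost its call without either vehicle control library (-0.52 and -0.62) and without any 1 library with 5-Ph-IAA. G1/S regulators numbered 1 raised and 4 lowered without Nutlin replicate 1, and 0 raised and 3 lowered without replicate 2.

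The remaining named genes that fell share no list. DYRK2, a kinase that phosphorylates p53, had 31.5 and 38.5 CPM with Nutlin, against 56.6 and 60.2 CPM with vehicle (-0.73 ± 0.11), and the splicing kinase PRPF4B had 102 and 107 CPM with Nutlin, against 149.7 and 156 CPM with vehicle (-0.55 ± 0.08). The AKT phosphatase PHLPP2 fell to 33.1 and 30.2 CPM with Nutlin, against 48.1 and 49.1 CPM with vehicle (-0.62 ± 0.10), and its mean transcript length moved to 4430 and 6942 bases with Nutlin, against 7133 and 7064 bases with vehicle. Levels of TMEM165 (a Golgi protein), FASTKD5 (a mitochondrial RNA-processing factor), GJC1 (a connexin) and the noncoding LINC00641 changed by -0.65, -0.65, -0.63 and -0.79. All of these calls were lost without either vehicle control library and without any 1 library with 5-Ph-IAA, and GJC1 also with the GC trend removed.

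Immediate early genes split, with 3 of 25 tested raised and 1 lowered. JUN had 83.9 and 76.5 CPM with Nutlin, against 45.4 and 43.2 CPM with vehicle (0.85 ± 0.09), and the stress gene IER3 and BTG2 rose by 0.51 and 0.87. FOSB, a partner of JUN in the factor AP-1, had 11.6 and 10.3 CPM with Nutlin, against 21.2 and 19.3 CPM with vehicle (-0.89 ± 0.15). Its relative FOS had 67.8 and 63.5 CPM with Nutlin, against 106 and 80.3 CPM with vehicle, without passing (adjusted p = 0.175). JUN was thus higher and FOSB lower. All 4 calls were lost without either vehicle control library. Those of FOSB, BTG2 and IER3 were also lost without any 1 library with 5-Ph-IAA, and that of IER3 with the GC trend removed. Of the immediate early genes, 3 rose and 4 fell without Nutlin replicate 1, and 8 rose and 2 fell without replicate 2.

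Of 26 mitosis genes 0 passed, with a median of -0.13, and of 24 S phase genes 0 passed, with a median of -0.03. MKI67, the proliferation antigen, had 744 and 354 CPM with Nutlin, against 719 and 685 CPM with vehicle, with the Nutlin replicates far apart, and the checkpoint gene BUB3 had 396 and 522 CPM with Nutlin, against 444 and 479.8 CPM with vehicle. The replication helicase genes MCM7 and MCM4 had 0.08 and -0.14 on the log2 scale. Of the mitosis genes, 0 rose and 3 fell without Nutlin replicate 1, and 0 rose and 9 fell without replicate 2. Of the S phase genes, 1 rose and 1 fell without Nutlin replicate 1, and 0 rose and 3 fell without replicate 2. The counts over all 8 libraries are edgeR counts of 0, beside which 1856 of all tested genes had an unadjusted p under 0.05.

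All 39 tested replication histones were positive, with a median of 0.38, and 1 rose, H2BC13, with 129.9 and 153 CPM with Nutlin, against 94.1 and 89.6 CPM with vehicle (0.62 ± 0.10). Their summed level was 15330 and 18950 CPM in Nutlin libraries, against 13790 and 12580 CPM in vehicle control libraries, highest in Nutlin replicate 2. All 15 mitochondrially encoded genes were negative, with a median of -0.43, and 0 passed. Their sum was 3071 and 1982 CPM with Nutlin, against 3317 and 2861 CPM with vehicle, lowest in the same library. MT-CO1 had 1200.0 and 639.5 CPM with Nutlin, against 1209 and 1088 CPM with vehicle. The H2BC13 call was lost without either vehicle control library (0.66 and 0.59), without any 1 library with 5-Ph-IAA and with the GC trend removed. Of the replication histones, 31 rose and 0 fell without Nutlin replicate 1, and 9 rose and 0 fell without replicate 2. Of the mitochondrially encoded genes, 0 rose and 8 fell without Nutlin replicate 1, and 0 rose and 0 fell without replicate 2. Histone genes are near-identical copies, so reads may be split among them, and the part of library differences in both lists was not tested.

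In 11 of the 31 lists no gene passed by edgeR, among them heat shock chaperones, NF-kB and interferon targets, ERK feedback genes, nuclear speckle proteins and ribosome biogenesis genes. The heat shock cognate HSPA8 had 4728 and 6222 CPM with Nutlin, against 5356 and 5350.0 CPM with vehicle. Of the heat shock chaperones, 3 rose and 2 fell without Nutlin replicate 1, and 1 rose and 1 fell without replicate 2. The NF-kB inhibitor NFKBIA had 36.1 and 43.4 CPM with Nutlin, against 48.04 and 49.1 CPM with vehicle. Of the NF-kB targets, 0 rose and 0 fell without Nutlin replicate 1, and 0 rose and 1 fell without replicate 2. The speckle scaffold gene SON had 600.4 and 405 CPM with Nutlin, against 625 and 623 CPM with vehicle, with the Nutlin replicates apart. Nuclear speckle proteins numbered 0 raised and 4 lowered without Nutlin replicate 1, and 1 raised and 6 lowered without replicate 2. The nucleolar genes NPM1 and NCL had 0.07 and -0.27 on the log2 scale. Of the ribosome biogenesis genes, 1 rose and 5 fell without Nutlin replicate 1, and 0 rose and 2 fell without replicate 2. Of the ERK feedback genes, 1 rose and 4 fell without Nutlin replicate 1, and 1 rose and 1 fell without replicate 2. The highest median among the lists named here was 0.11, for interferon targets. Of the interferon targets, 1 rose and 1 fell without Nutlin replicate 1, and 0 rose and 0 fell without replicate 2.

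Some calls carry a limit of the counting. UTP14C had 68 and 76 counts with Nutlin, against 0 and 0 with vehicle, at least 20.6-fold higher at a floor of 3 counts per library. It was at 0 in all 4 libraries with 5-Ph-IAA, and it lost its call without either vehicle control library. UTP14C is a near-identical copy of UTP14A, so its value is uncertain. A noncoding transcript without a symbol had 0 and 0 counts with Nutlin, against 132 and 64 with vehicle, at least 20.5-fold lower. Raised noncoding entries at chr16:56940278-56941342 (21 and 25 counts against 1 and 1) and chr16:56941028-56941726 (75 and 61 against 8 and 14) lie inside HERPUD1 on its strand. Reads there may belong to HERPUD1. Another, antisense at chr2:47905678-47907810, had 24 and 27 counts against 1 and 3. SLC7A11-AS1 rose by 2.87, but it is antisense to SLC7A11, and with the strand setting of the counting not given, reads of the pair cannot be told apart. LPIN1 and MARS1 had mean transcript lengths 21.3% and 14.4% shorter with Nutlin, a separation of 10% or more that 13.3% of tested genes showed.

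The same comparison in cells given 5-Ph-IAA called 67 of 17251 genes (0.388%). Of the 68 raised genes, 67 were positive there with both Nutlin libraries above both controls, an order that 23.1% of tested genes showed. The exception was UTP14C, at 0 in all 4 libraries. In the same comparison the 12 lowered genes were all negative and separated, against 23.3% of tested genes. The median log2 fold change of the raised genes was 1.03 without 5-Ph-IAA and 0.94 with it, and of the lowered genes -0.69 and -0.50. These genes were chosen by the values without 5-Ph-IAA, so their sizes in the 2 settings are a description. CHAC1 had 57.3 and 49.2 CPM with 5-Ph-IAA and Nutlin, against 4.11 and 4.801 CPM in the 5-Ph-IAA control, a log2 fold change of 3.58 beside 4.35 without 5-Ph-IAA. CDKN1A had 1.12 beside 1.41, and H2BC13 0.09 beside 0.62.

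The difference between the 2 responses was tested itself. By edgeR 0 of 17251 genes were called. Before adjustment 623 had p below 0.05, fewer than this threshold would give with no difference at all. The count by DESeq2 after adjustment was 1. For H2BC13 the unadjusted p was 0.00336, for BMP4 0.00855 and for CHAC1 0.00864, each with an adjusted p of 0.989. A p that misses the threshold does not show that the responses were alike.

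**Figure D5:**
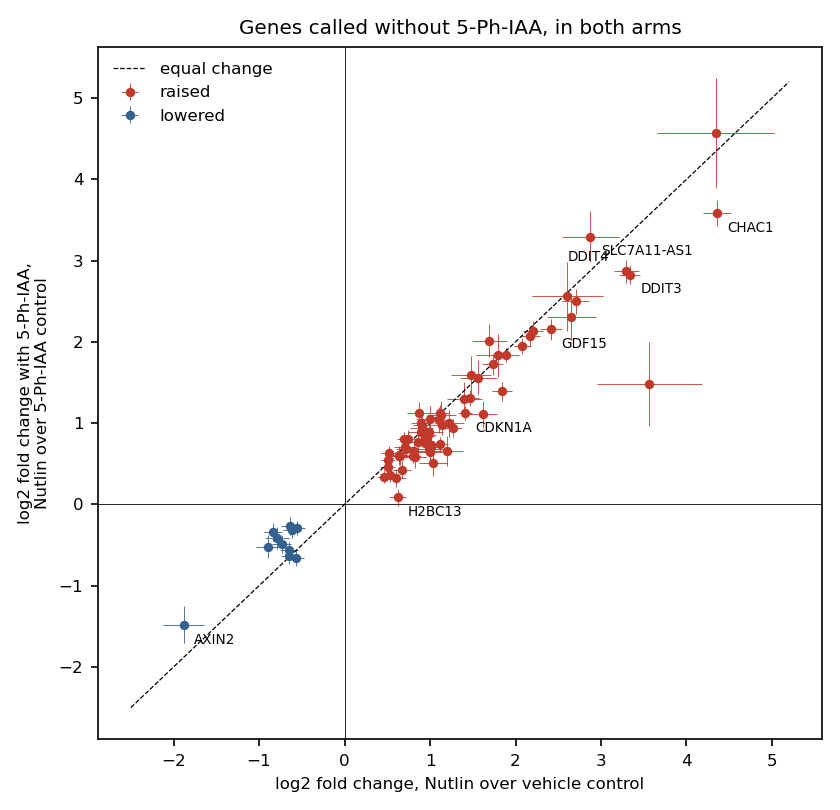
Log2 fold change with 5-Ph-IAA (y axis) against that without it (x axis) for 78 of the 80 passing genes, leaving out the 2 with a pair of libraries at 0, with bars for the SE and a dashed line of equal change. CHAC1 lies at 3.58 with and 4.35 without 5-Ph-IAA, and H2BC13 at 0.09 with and 0.62 without.

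Of the 80 genes, 24 kept their call without vehicle control replicate 1 and 24 without replicate 2, while all 80 kept it without either Nutlin library. Without 1 library with 5-Ph-IAA, between 41 and 42 kept it. In all 17 alternatives 21 genes kept their call, ASNS, ATF3, ATF4, CARS1, CDKN1A, CHAC1, DDIT3, DDIT4, GDF15, HERPUD1, LRATD2, LURAP1L, MT1E, MT1X, SESN2, SLC7A11, STC2, TRIB3, TSC22D3, VEGFA and XBP1. None of the 80 reversed direction in any. Their pairs were separated and every alternative reused these libraries, so a reversal was hardly possible and its absence is no support. The Nutlin pair had the greatest spread of the pairs, and a fit without 1 of its libraries no longer holds that spread. Calls kept in those fits are therefore not a measure of stability.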

How the data were processed

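RNA-seq was made from Trizol RNA with a TruSeq Stranded Total RNA Gold kit, per the labels' protocols. The authors deposited RSEM gene tables with expected counts, TPM and gene length. STAR 2.7.10b, RSEM, DESeq2 1.48.1 and hg38/GRCh38 are named per the submitters' processing notes, and the annotation release and strand setting are not given in the sources used here. Expected counts as deposited were rounded to whole numbers. TPM as deposited by the authors were used in no test. The 8 libraries of the Nutlin experiment entered 1 fit in edgeR 4.0.16 (R 4.3.3) with 1 coefficient per group, TMM scaling, filterByExpr (minimum 10, total 15), the quasi-likelihood test and Benjamini-Hochberg adjustment at 0.05. The spread had 4 residual degrees of freedom and a common biological coefficient of variation of 0.114. SE are on the log2 scale, taken as the absolute log2 fold change divided by the square root of the quasi-likelihood F. A prior count of 2 was used for log2 CPM only.

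Symbols matched 78.11% of identifiers. Positions, biotypes and GC are from GENCODE 29, and GC was known for 91.48% of tested genes. Promoters are from RefSeq. Alternatives were DESeq2 1.42.0, limma 3.58.1 with library weights, other scaling, filters and sample sets, a replicate block, each library left out, and a GC trend removed, which was chosen after seeing the data.

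Named genes were HNRNPU, MDM2 and CDKN1A, up to 20 raised and 12 lowered genes of greatest change that passed with a mean log2 CPM of at least 1, and from each list up to 4 passing members or the 2 most expressed. Some genes this picks are not reported here. The comparison and lists were chosen with earlier results of these data known. Replicate numbers came from the titles.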

Additional observations from a re-analysis of the deposited data

How the results depend on the processing

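Against 80 genes, DESeq2 called 158, no low-count filter 405, the fit with a GC trend removed 127, limma with library weights 47 and the fit on the compared groups only 28. All 47 genes called by limma were raised, and 2 of the 28 were lowered. Leaving out 1 library gave between 25 (either vehicle control library) and 2150 (without Nutlin replicate 1), with 1176 without Nutlin replicate 2. Between 41 and 44 were called without 1 library with 5-Ph-IAA. The share raised was 85% of the 80 genes, 57.0% with no filter, 71.5% with DESeq2 and 38.6% and 35.5% without Nutlin replicate 1 and 2. For the difference between the responses with and without 5-Ph-IAA, edgeR called 0, DESeq2 1 and no low-count filter 57, and leaving out 1 library gave between 0 and 1050 (without Nutlin replicate 1). The cause of these shifts was not tested, and a fit that leaves 1 library in a group assumes that it varies like the other groups. With the replicate block 61 genes were called, and 0 for the difference. Across all tested genes, differences between replicates 1 and 2 in the Nutlin and vehicle control pairs correlated at 0.047. In both pairs these differences followed GC percent in the same direction. The correlation does not settle whether replicate numbers pair the libraries, which the labels do not say. Of 56 named genes that passed, 17 kept their call in all 17 alternatives. None reversed, which their separated pairs made hardly possible.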

Other observations

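Metallothioneins, small proteins that bind zinc and copper, and the zinc exporter SLC30A1 were grouped after their values were seen, so their count is a description. Of 10 genes 5 were tested and 4 rose. MT1E had 569 and 593 CPM with Nutlin, against 271 and 264 CPM with vehicle (1.12 ± 0.09), MT1X had 72.3 and 74.9 CPM with Nutlin, against 28.6 and 32.5 CPM with vehicle (1.27 ± 0.11) and MT2A had 169 and 142 CPM with Nutlin, against 88.9 and 78.2 CPM with vehicle (0.89 ± 0.11). SLC30A1 had 70.1 and 99.9 CPM with Nutlin, against 38.3 and 47.8 CPM with vehicle (0.99 ± 0.17). A further 5 were at 0 in all 4 libraries, and the summed level was 882 and 909 CPM with Nutlin, against 427 and 423 CPM with vehicle. MT1E and MT1X kept their calls in all 17 alternatives, while MT2A and SLC30A1 lost theirs without either vehicle control library. The copies are similar in sequence, so reads may be split among them.

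Metal response elements, searched after the fact on both strands as TGCGCNC and TGCACNC, occurred in 16 (31.37%) and 7 (13.73%) of the 51 raised genes with a window, against 30.83% and 11.26% of tested genes and 19.97% and 11.89% of all promoters. The MT2A window, chr16:56608334-56608633 (+) on GRCh38.p14, is shown because it holds 8 matches, in capitals.
MT2A: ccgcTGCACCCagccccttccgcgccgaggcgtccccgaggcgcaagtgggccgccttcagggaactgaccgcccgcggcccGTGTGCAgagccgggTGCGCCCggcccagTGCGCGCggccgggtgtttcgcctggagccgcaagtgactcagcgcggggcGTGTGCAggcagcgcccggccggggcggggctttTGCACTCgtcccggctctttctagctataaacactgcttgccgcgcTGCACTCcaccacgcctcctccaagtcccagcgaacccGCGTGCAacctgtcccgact

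Of the raised genes 26 were on no list. STC2, a secreted glycoprotein induced in ER stress, had 126 and 100.3 CPM with Nutlin, against 34.6 and 33.4 CPM with vehicle (1.73 ± 0.13). ULBP1, a ligand of the lymphocyte receptor NKG2D, had 14.1 and 10.8 CPM with Nutlin, against 4.04 and 3.597 CPM with vehicle (1.70 ± 0.20), and LURAP1L had 17.2 and 15.4 CPM with Nutlin, against 3.52 and 1.57 CPM with vehicle (2.65 ± 0.29). PCK2, the mitochondrial enzyme that makes phosphoenolpyruvate, had 37.7 and 25.3 CPM with Nutlin, against 11.6 and 9.52 CPM with vehicle (1.57 ± 0.22), and the arrestin-domain gene ARRDC4 had 15.1 and 14.1 CPM with Nutlin, against 4.43 and 5.09 CPM with vehicle (1.61 ± 0.17). The growth factor gene AREG and the EGFR inhibitor ERRFI1, both chosen after their values were seen, rose by 0.69 and 0.51. Of these, ULBP1, PCK2, AREG and ERRFI1 lost their calls without either vehicle control library and ARRDC4 without replicate 1 (1.51).

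The median genomic span of raised protein-coding genes was 14.5 kb, of lowered ones 31.8 kb and of all tested ones 33.0 kb, given as a description.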
